A study of Mus musculus with 16 samples.

Results

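Transcription factors that mark the dorsal, septal or ventral origin of progenitors in the ventricular-subventricular zone (V-SVZ) of the forebrain were followed in cultured mouse neural stem cells (NSCs) with and without Tsc2. They were Six3, Nkx2-1, Pax6, Emx2, Lhx2, Zic1, Zic2, Zic5 and Otx1, taken by symbol, and make up 9 of the 24946 genes kept. All 9 members passed the filter on low values in both kinds of RNA. NSCs were grown from the V-SVZ of pups labelled Tsc2 wild type/wild type or Tsc2 mutant/mutant, and 4 cultures per genotype each gave a library of total RNA and a library of polyribosomal RNA, the RNA that sinks deepest in a sucrose gradient because several ribosomes sit on each mRNA. The mutant allele (Tsc2tm1.1Mjg) was recombined by a 4-hydroxytamoxifen-inducible Cre under the Nestin promoter (Nes-cre/ERT2), with a tdTomato reporter, in pups injected as neonates and dissected 7 days later, so only cells in which that promoter drove Cre carry the mutation. The labels and methods leave unclear if Cre was also present in the wild-type pups. Both libraries of a culture were made from that culture, while the animal, litter and sex behind it are not labelled, and p-values therefore describe the variation among cultures, which may be technical.

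Position along the ventricle wall decides which olfactory interneurons a V-SVZ stem cell makes, and this position is written in transcription factors kept from the embryo. Emx2, Pax6 and Lhx2 pattern the dorsal pallium, where Emx2 is graded towards the medial and caudal side and Lhx2 sets cortical against midline fate. Zic1, Zic2 and Zic5, zinc finger factors, mark the septum and the dorsal and medial forebrain. Nkx2-1 specifies the medial ganglionic eminence, the preoptic area and much of the hypothalamus. Six3 and Otx1 act early in the anterior neural plate, Six3 in the rostral forebrain, septum and eye field and Otx1 in forebrain and midbrain. Tsc2 is a subunit of the complex that restrains mTORC1, a kinase that promotes the translation of mRNAs, above all those that begin with a terminal oligopyrimidine tract, a C followed by a run of pyrimidines.

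The start of an mRNA is shown first, because the comparison that moved most members was that of polyribosomal with total RNA. RefSeq (GRCm38.p6) windows around transcription starts matched 7 of the 9 members, all but Zic2 and Otx1, with 9 starts in all. The first 20 bases of each annotated transcript follow, with the pyrimidines that open it in capitals.
Six3 (start at chr17:85620834, plus strand): attgctgtggaatcgctgaa
Nkx2-1 (start at chr12:56536908, minus strand): CTggtaacagcaatgaggct
Pax6 (start at chr2:105668896, plus strand): accctcttttcttatcgttg
Pax6 (start at chr2:105682463, plus strand): Catattcccccctcgtctat
Emx2 (start at chr19:59458690, plus strand): aggcttcggaggaagctgtt
Lhx2 (start at chr2:38339281, plus strand): gccaggacgctgcggcgcgg
Lhx2 (start at chr2:38351308, plus strand): accccggggggaagagacgt
Zic1 (start at chr9:91365768, minus strand): atcagtctcgcgctcaccgc
Zic5 (start at chr14:122465658, minus strand): agggggcacgaagtgaaagc
None of the 9 starts opened with C and 4 or more further pyrimidines, whereas 2.51% of the 32851 annotated starts of all genes did. Of the 85 starts of tested genes with symbols opening in Rpl or Rps and a digit, 16.5% did. That choice by symbol takes in ribosomal protein genes but also matches others, such as S6 kinase genes, so 16.5% is not a share of ribosomal protein genes alone. Annotated starts are not the starts used in these cells, which were not measured.

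The 250 bases upstream of the start are printed for the 4 members that fell in translational efficiency and have an entry, with matches to short motifs in capitals. These were the CCAAT box (letters CCAAT), the GC box (letters GGGCGG), the palindromic E-box (letters CACGTG) and the TATA box (letters TATAAA), each searched on both strands, so that a match on the other strand reads as its reverse complement.
Six3 (chr17:85620584-85620833, plus strand): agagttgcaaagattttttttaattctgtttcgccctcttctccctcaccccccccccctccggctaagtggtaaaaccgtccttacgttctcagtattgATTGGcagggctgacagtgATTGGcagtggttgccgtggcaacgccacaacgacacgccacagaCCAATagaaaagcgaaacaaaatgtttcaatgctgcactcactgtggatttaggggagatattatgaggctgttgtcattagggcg
Nkx2-1 (chr12:56536909-56537158, minus strand): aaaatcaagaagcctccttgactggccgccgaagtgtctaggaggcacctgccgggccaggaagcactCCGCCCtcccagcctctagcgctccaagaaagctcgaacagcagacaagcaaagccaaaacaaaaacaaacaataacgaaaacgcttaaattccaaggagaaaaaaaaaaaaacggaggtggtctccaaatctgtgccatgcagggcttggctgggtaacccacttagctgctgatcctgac
Emx2 (chr19:59458440-59458689, plus strand): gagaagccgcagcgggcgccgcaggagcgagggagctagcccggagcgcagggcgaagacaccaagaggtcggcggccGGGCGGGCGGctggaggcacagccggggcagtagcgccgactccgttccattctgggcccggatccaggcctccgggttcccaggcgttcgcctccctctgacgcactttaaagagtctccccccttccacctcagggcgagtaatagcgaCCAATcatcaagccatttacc
Zic1 (chr9:91365769-91366018, minus strand): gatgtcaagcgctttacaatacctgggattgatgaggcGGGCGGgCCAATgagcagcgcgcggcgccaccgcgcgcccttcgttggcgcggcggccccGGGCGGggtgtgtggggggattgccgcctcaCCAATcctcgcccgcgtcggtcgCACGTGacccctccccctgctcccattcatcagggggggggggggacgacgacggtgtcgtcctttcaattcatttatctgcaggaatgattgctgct
Six3 held 3 CCAAT matches, Emx2 held 1 and Zic1 held 2, while Nkx2-1 held 0. Of the windows of all genes, 33.8% held a CCAAT box, 32.7% a GC box, 6.02% the E-box and 12.4% a TATA box. The GC box matches in Emx2 overlap one another, Zic1 alone among the 7 members held the E-box, and no member held a TATA box in this window. Six3 and Nkx2-1 upstream sequence was 48.8% and 50.8% GC, against 67.2% in Emx2 and 66% in Zic1.

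The libraries held an estimated 24.7 M to 139 M reads for total RNA and 51.9 M to 265 M reads for polyribosomal RNA, with the deposited values already divided by normalization factors and given here as normalized reads. Tsc2 itself was at 6896 ± 676 normalized reads of total RNA in wild-type and 6417 ± 664 in mutant cultures (mean ± SD, n = 4), which did not pass the test (log2 change -0.10 ± 0.10, adjusted p = 0.422), and at 11448 ± 1229 against 8256 ± 1550 in polyribosomal RNA (-0.49 ± 0.15, adjusted p = 0.0389). These are values over the whole gene, which do not read the deleted part on its own. Of 12 NSC markers all were tested, and in total RNA 1 rose and 2 fell. Markers of other cells were counted as well. In total RNA 9 of 10 oligodendrocyte, 3 of 12 microglial, 3 of 10 neuronal and 4 of 10 meningeal or fibroblast markers rose. So did 2 of the 6 choroid plexus markers tested, 1 of 6 ependymal and 2 of 5 endothelial markers. The choroid plexus pair, Ttr and Folr1, passed the filter on low values only through the mutant cultures and could only be called higher. None of these markers fell. Of all genes tested, 19.7% rose and 20.7% fell, so the smaller of these counts lie near the share of all genes. Summed oligodendrocyte markers ran from 12762 to 15210.3 normalized reads in wild-type and from 24161 to 35002 in mutant total RNA, and summed microglial markers from 2735 to 4612 and from 3098 to 20923, with mutant cultures 2 and 4 at 20923 and 11704. Summed choroid plexus markers ran from 1031 to 1299.5 and from 1482 to 3823, with mutant culture 3 the highest, and meningeal markers from 2524 to 5290.4 and from 5477 to 6805. No marker of these lists was at 0 in every library of a group. The mean log2 level of 4 Y-linked genes in total RNA was 9.92, 10.2, 10.4 and 5.94 in wild-type cultures 1 to 4 and 10.1, 3.71, 2.22 and 1.00 in mutant cultures 1 to 4, so Y-linked RNA was high in 3 wild-type cultures and 1 mutant culture. The part of other cell types and of sex in the results that follow was not tested except where values are given. In bulk RNA, fewer cells of a region and less RNA per cell cannot be told apart.

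All 9 members were found in the wild-type cultures, at levels that spanned a wide range. Per kilobase of the longest annotated coding transcript, Lhx2 was the most abundant in wild-type total RNA at 3117 ± 99.8 normalized reads per kilobase (SD, n = 4), followed by Six3 at 1178 ± 317. Emx2 at 588 ± 48.5, Zic2 at 556 ± 60.8 and Zic1 at 549 ± 41.7 came next and lay within 1 SD of each other. Pax6 was at 445 ± 23.0, Otx1 at 238 ± 12.3 and Zic5 at 94.8 ± 19.8. Nkx2-1 was the lowest at 20.4 ± 8.29. The septal and dorsal factors were thus present together with a low level of the ventral factor in every culture. In mutant total RNA Zic2 came next after Lhx2 and Six3, at 807 ± 115 per kilobase, above Zic1 at 626 ± 116 and Emx2 at 605 ± 27.0, the last pair lying within 1 SD of each other, and Nkx2-1 was again the lowest at 67.2 ± 44.3, with Zic5 at 83.0 ± 10.9, a gap larger than the SD of Zic5 and smaller than that of Nkx2-1.

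**Figure D1:**
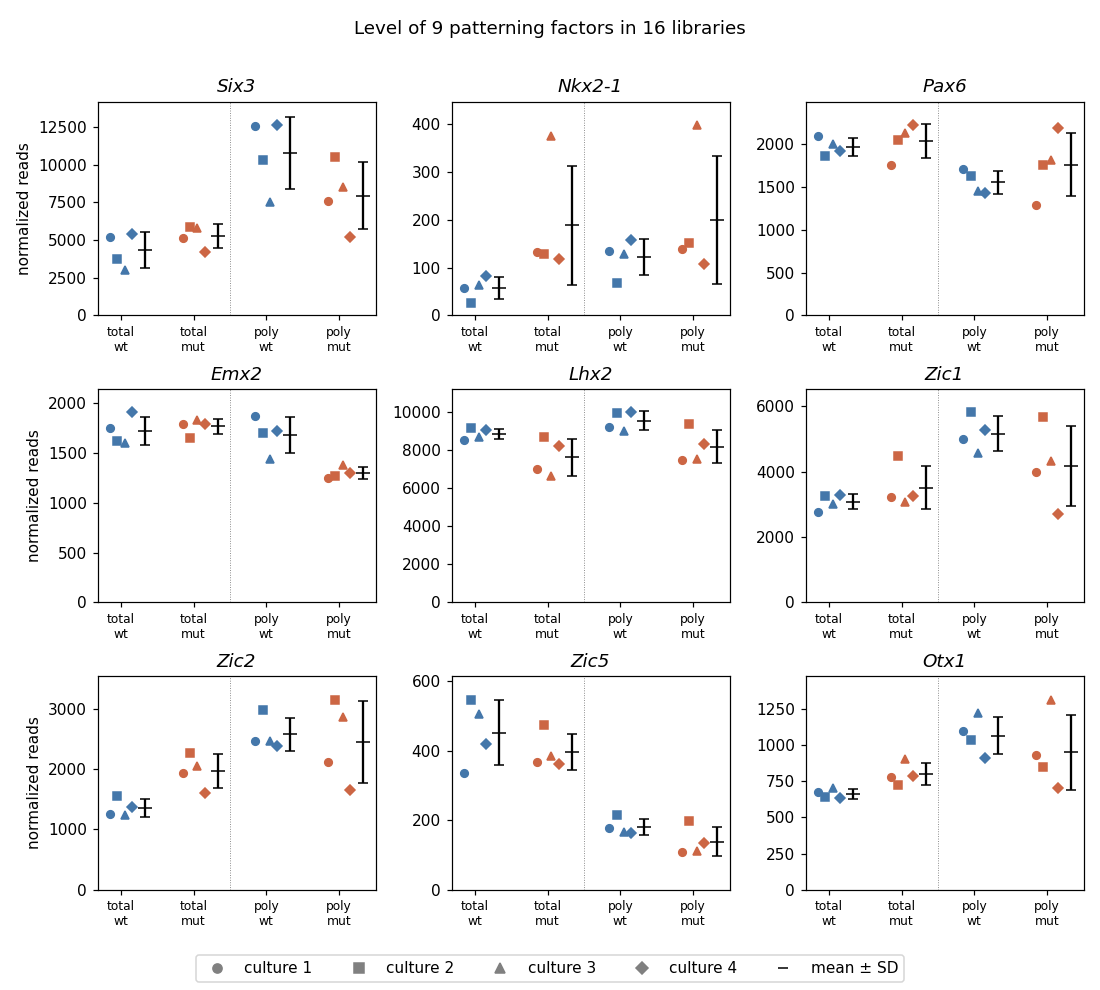
Normalized reads (y axis, from 0) of the 9 patterning factors in total and polyribosomal (poly) RNA of wild-type (wt, blue) and Tsc2 mutant (mut, orange) cultures, with 1 point per library, a marker shape per culture number and black bars for the mean ± SD of 4 cultures. Mutant culture 3 stands apart for Nkx2-1 in both fractions, and Emx2 in polyribosomal RNA lies between 1251 and 1380.0 in the mutant cultures, below all wild-type cultures.

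In total RNA, Nkx2-1 and Zic2 rose in the mutant cultures and the other 7 members did not pass the test. This comparison asks which mRNAs were more or less abundant after the loss of Tsc2. Across all genes tested 40.3% passed, 19.7% higher and 20.7% lower in the mutant (with each library scaled to its column total alone, 3838 genes were higher and 2263 lower instead of 2944 and 3091, and the median change of all genes moved from 0.01 to 0.11), so 2 of 9 members, or 22.2%, is a share under that of all genes. The median log2 change of the members was 0.18, against 0.01 over all genes tested.

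Nkx2-1, the ventral factor, was at 57.3, 26.6, 62.6 and 82.9 normalized reads in wild-type cultures 1 to 4 and at 133, 129, 375 and 118 in mutant cultures 1 to 4. Every mutant culture lay above every wild-type culture, and mutant culture 3 was far above the others. The change was 1.63 ± 0.43 on the log2(value + 1) scale (standard error, adjusted p = 0.0144 by limma), or 3.09-fold with a 95% confidence interval of 1.60 to 5.95. The value of wild-type culture 2, the shallowest library, rests on an estimated 8.89 reads.

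Zic2, a factor of the dorsal midline and septum, was at 1257, 1561, 1238 and 1374 in wild-type and at 1941, 2277, 2051 and 1603 in mutant cultures. The groups did not overlap, and Zic2 was 1.44-fold higher in the mutant (log2 change 0.53 ± 0.12, adjusted p = 0.00901). Its neighbour Zic5, which lies 9758 bases away on the opposite strand of chromosome 14, did not pass. Zic5 was at 335, 547, 505 and 420.0 in wild-type and at 366, 473, 383 and 362 in mutant cultures, which overlapped (-0.17 ± 0.17, adjusted p = 0.432). The noncoding gene 2610035F20Rik, which lies 236 bases from Zic2 on the opposite strand, was at 46.0 ± 11.3 in wild-type and 87.1 ± 9.14 in mutant total RNA (0.93 ± 0.22, adjusted p = 0.00947).

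Otx1 was at 674, 641, 708 and 632 in wild-type and at 782, 725, 905 and 789 in mutant total RNA. These groups did not overlap either, yet the change of 0.27 ± 0.10 missed the threshold (adjusted p = 0.0625). With each library scaled to its column total alone it was 0.36 and passed (adjusted p = 0.0264). The count of 3 members whose groups did not overlap, all higher in the mutant, compares with 38.1% of all genes (17.8% higher and 20.3% lower in the mutant).

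Lhx2, the cortical selector, was the member nearest to a fall in total RNA. It was at 8550.0, 9144, 8681 and 9039 in wild-type and at 7011, 8683, 6632 and 8225 in mutant cultures, with a change of -0.22 ± 0.10 (adjusted p = 0.0894), and mutant culture 2 reached the wild-type range. Without mutant cultures 2 and 4, the pair highest in microglial markers, the change was -0.38 and passed (adjusted p = 0.00725).

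Six3 was at 5183, 3742, 2983 and 5428 in wild-type and at 5131, 5885, 5797 and 4201 in mutant cultures. Its change of 0.31 ± 0.19 did not pass (adjusted p = 0.213), and the wild-type cultures alone spanned almost the whole range. The log2 change was 0.18 ± 0.12 for Zic1 (adjusted p = 0.269), 0.05 ± 0.09 for Pax6 (adjusted p = 0.699) and 0.04 ± 0.09 for Emx2 (adjusted p = 0.717), and none of the 3 passed. Pax6 and Emx2 had 95% confidence intervals of 0.896 to 1.19 and 0.900 to 1.18 for the fold.

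In polyribosomal RNA no member passed the test, while 23.6% of all genes did (1690 higher and 1713 lower, or 2579 and 927 with column totals alone, where the median change moved from 0.01 to 0.13). At an unadjusted p under 0.05 the count was 1 of the 9 members, Emx2, and 5585 of the 14412 genes tested. The log2 change was below 0 in 7 of the 9 members, and the median of all 9 was -0.22 against 0.01 over all genes tested.

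Emx2, the dorsal and medial factor, was at 1867, 1695, 1440.3 and 1715 normalized reads in wild-type and at 1251, 1268, 1380.0 and 1296 in mutant polyribosomal RNA. Every mutant culture lay below every wild-type culture, and the mutant cultures differed little (SD 57.3 against 177). The change of -0.37 ± 0.13 was just over the threshold (adjusted p = 0.0568). Emx2 was the 1 member whose groups did not overlap, in a comparison where 27.9% of all genes did not overlap (13.3% higher and 14.6% lower).

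Six3 was at 12553, 10318, 7543 and 12616 in wild-type and at 7594, 10489, 8523 and 5187 in mutant polyribosomal RNA, and wild-type culture 3 lay within the mutant range (-0.45 ± 0.22, adjusted p = 0.146). Nkx2-1 was at 134, 68.5, 128 and 157 in wild-type and at 139, 153, 398 and 108 in mutant polyribosomal RNA. Apart from mutant culture 3 the mutant cultures lay inside the wild-type range, and the change of 0.57 ± 0.38 did not pass (adjusted p = 0.288). Zic2, higher in mutant total RNA, was at 2477, 2987, 2480 and 2393 in wild-type and at 2121, 3162, 2866 and 1660.1 in mutant polyribosomal RNA (-0.12 ± 0.19, adjusted p = 0.689), so that the mutant cultures lay on both sides of the wild-type ones.

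Zic1 was at 4992, 5807, 4568 and 5283 in wild-type and at 3978, 5661, 4324 and 2708 in mutant polyribosomal RNA (-0.35 ± 0.19, adjusted p = 0.196), and Zic5 at 176, 213, 165 and 163 and at 109, 197, 111 and 135 (-0.41 ± 0.22, adjusted p = 0.194). In both, mutant culture 2 lay above the lowest wild-type culture; without that culture both passed, Zic1 at -0.52 (adjusted p = 0.0431) and Zic5 at -0.60 (adjusted p = 0.0450). The log2 change was -0.22 ± 0.12 for Lhx2 (adjusted p = 0.174), -0.20 ± 0.19 for Otx1 (adjusted p = 0.471) and 0.16 ± 0.16 for Pax6 (adjusted p = 0.497). Without mutant cultures 2 and 4, Lhx2 at -0.34 (adjusted p = 0.0309) and Zic5 at -0.69 (adjusted p = 0.0247) passed. Six3, Nkx2-1, Zic1, Zic2 and Otx1, 5 of the 9 members, had their lowest mutant value in mutant culture 4, and the other 4 had it in mutant culture 1, while mutant culture 2 held the highest mutant value of Six3, Lhx2, Zic1, Zic2 and Zic5.

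**Figure D2:**
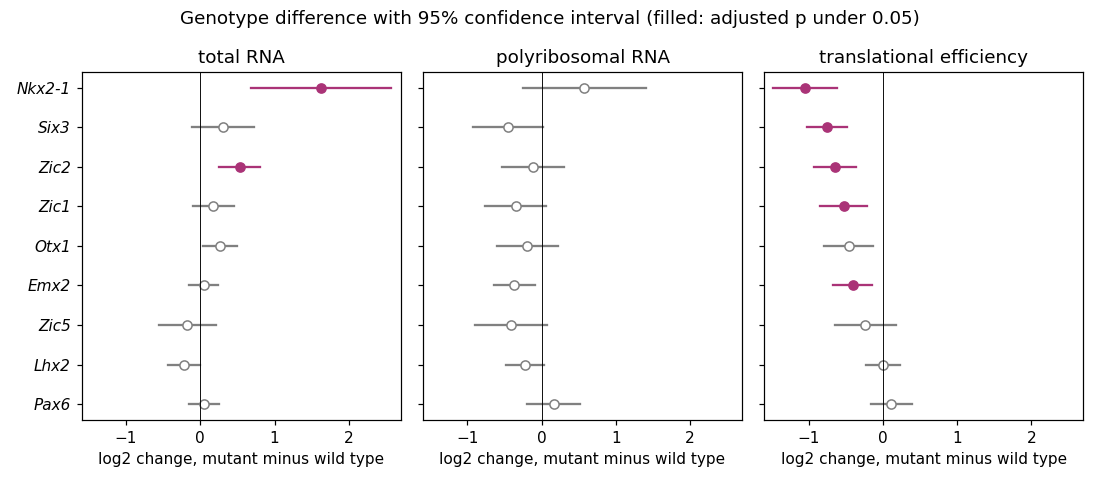
Log2 change (mutant minus wild type, x axis) of each member in total RNA, polyribosomal RNA and translational efficiency, with its 95% confidence interval; filled symbols passed an adjusted p of 0.05. In total RNA 2 members pass, both to the right of 0, none passes in polyribosomal RNA, and 5 pass in translational efficiency, all to the left of 0.

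Translational efficiency, the level of an mRNA in polyribosomal RNA relative to its level in total RNA, fell for Six3, Nkx2-1, Zic2, Zic1 and Emx2 in the mutant cultures. This comparison asks which mRNAs changed in their level on polyribosomes beyond a change in total level. It was tested as the difference of the genotype effect between the 2 fractions with culture as a block. By the methods, total RNA was taken from the homogenate before a low-speed spin and polyribosomal RNA from the lysate after it. The ratio can therefore also reflect RNA removed by that spin, which was not measured. Of the 9 members 5 passed, 55.6%, all lower, in a comparison where 13.0% of all genes passed, 5.07% higher and 7.89% lower. The median log2 change of the members was -0.46, against 0.01 over all genes tested. All members except Pax6 were below 0, Lhx2 by so little (0.00 to the second decimal) that it turned to 0.0247 with column totals alone. The calls rest on the culture block: in limma without it 0 members and 0 genes passed, with 5 members and 2221 genes at an unadjusted p under 0.05.

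For Six3 the log2 ratio of polyribosomal to total RNA was 1.28, 1.46, 1.34 and 1.22 in wild-type cultures 1 to 4 and 0.57, 0.83, 0.56 and 0.30 in mutant cultures 1 to 4. The highest mutant ratio was below the lowest wild-type ratio although the values of Six3 overlapped in each fraction on its own. Within each genotype the order of the cultures was the same in both fractions. The efficiency of Six3 was 0.591-fold that of the wild type (log2 change -0.76 ± 0.13, adjusted p = 0.00613), and 3.38% of all genes tested had a lower change.

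Nkx2-1 had ratios of 1.21, 1.33, 1.01 and 0.92 in wild-type and 0.07, 0.24, 0.09 and -0.13 in mutant cultures, with a gap between the groups wider than the range within either. Its efficiency change of -1.05 ± 0.21 (adjusted p = 0.00733) was the largest of the members, and 0.998% of all genes had a lower one. Mutant culture 3, which held the most Nkx2-1 RNA in both fractions, had a ratio like those of mutant cultures 1 and 2.

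Zic2 had ratios of 0.98, 0.94, 1.00 and 0.80 in wild-type and 0.13, 0.47, 0.48 and 0.05 in mutant cultures (-0.65 ± 0.13, adjusted p = 0.00873). Zic2 and Nkx2-1 were the members whose total RNA rose, and as the same total RNA libraries enter both comparisons, a rise in total RNA that polyribosomal RNA does not follow is by construction a lower ratio.

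Zic1, a septal factor, had ratios of 0.85, 0.83, 0.60 and 0.69 in wild-type and 0.30, 0.34, 0.50 and -0.27 in mutant cultures (-0.53 ± 0.15, adjusted p = 0.0295). The groups did not overlap, and mutant culture 4 was the lowest by a wide margin. Without that culture the change was -0.37 and missed the threshold (adjusted p = 0.0565), as it did without wild-type culture 2 (-0.50, adjusted p = 0.0849) or mutant culture 1 (-0.56, adjusted p = 0.0612).

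Emx2 had ratios of 0.10, 0.07, -0.15 and -0.15 in wild-type and -0.51, -0.38, -0.41 and -0.46 in mutant cultures, which did not overlap. The change was -0.41 ± 0.12 (adjusted p = 0.0381). Unlike Nkx2-1 and Zic2, Emx2 had total RNA levels that overlapped between the genotypes, while its polyribosomal levels did not overlap. The call was the least stable of the 5, since leaving out any 1 culture other than wild-type culture 1 ended it (adjusted p from 0.0511 to 0.137), with changes between -0.45 and -0.37. Without wild-type culture 1 it was -0.36 (adjusted p = 0.0442).

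Otx1 had ratios of 0.70, 0.69, 0.79 and 0.53 in wild-type and 0.25, 0.23, 0.54 and -0.16 in mutant cultures (-0.46 ± 0.16, adjusted p = 0.0589). Mutant culture 3 was just above the lowest wild-type culture, and without it the change was -0.57 and passed (adjusted p = 0.0398), as it also did without wild-type culture 1 (-0.45, adjusted p = 0.0400). The 5 members called had groups that did not overlap, all lower, in a comparison where 19.0% of all genes did not overlap, 8.16% higher and 10.8% lower.

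Zic5, Lhx2 and Pax6 did not pass. Zic5 had the lowest ratios of the 9 members in both genotypes, -1.31 ± 0.29 in wild-type and -1.55 ± 0.25 in mutant cultures (SD, n = 4), and its change of -0.24 ± 0.19 lay within their spread (adjusted p = 0.434). Lhx2 had mean ratios of 0.11 ± 0.04 and 0.10 ± 0.07, a change of -0.00 ± 0.11 (adjusted p = 0.988) and a 95% confidence interval of 0.852 to 1.17 for the fold. Pax6 had ratios from -0.47 to -0.19 in wild-type and from -0.45 to -0.02 in mutant cultures, with a change of 0.11 ± 0.13 (adjusted p = 0.592) and an interval of 0.895 to 1.31 for the fold. Emx2, the other dorsal factor, passed as lower, with an interval of 0.630 to 0.902. The difference between members was not tested.

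**Figure D3:**
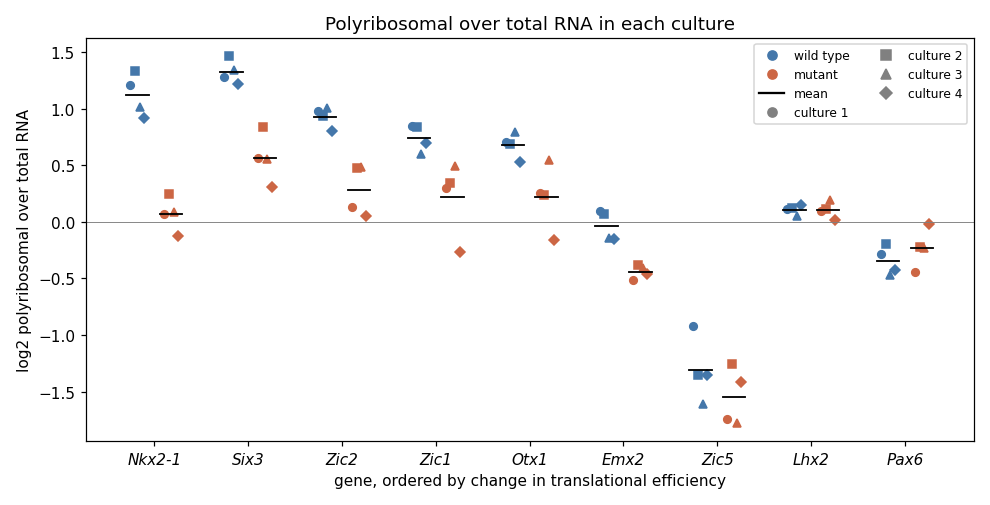
Log2 ratio of polyribosomal to total RNA (y axis) in each culture, wild type in blue and mutant in orange, with the group mean as a black line and genes ordered by their change in translational efficiency. For Nkx2-1, Six3, Zic2, Zic1 and Emx2 all 4 mutant cultures lie below all 4 wild-type cultures, and for Otx1 the mutant culture 3 reaches 0.54, just over the lowest wild-type value of 0.53.

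The level of Y-linked RNA differed between the genotypes, so the ratios were also set side by side above and below a mean log2 level of 8. The cultures below that cut were not alike in it, with wild-type culture 4 at 5.94 and mutant cultures 2 to 4 at 3.71, 2.22 and 1.00. Where it was high (wild-type cultures 1 to 3 and mutant culture 1), the mutant ratio was below all 3 wild-type ratios for Six3, Nkx2-1, Emx2, Zic1 and Zic2, by 0.79, 1.12, 0.52, 0.46 and 0.84 on the log2 scale. Where it was low (wild-type culture 4 and mutant cultures 2 to 4), all 3 mutant ratios were below that of the wild-type culture for the same 5 members, by 0.65, 0.85, 0.27, 0.50 and 0.46. The groups of these 5 members did not overlap over all cultures, so this order holds in any subset and adds no support. Otx1 and Zic5 were lower in the mutant at the high level (by 0.48 and 0.44) and overlapped at the low level. Lhx2 overlapped at both levels. Pax6 overlapped at the high level and was higher in the mutant at the low level. With 1 culture on one side, neither comparison allows a test. When the Y-linked level was added as a covariate, 0 members passed in any comparison (Six3 at -0.67 with adjusted p = 0.0918 in efficiency, Nkx2-1 at 1.23 with adjusted p = 0.153 and Zic2 at 0.57 with adjusted p = 0.0657 in total RNA), and 1063, 43 and 0 of all genes passed in total RNA, polyribosomal RNA and efficiency. At an unadjusted p under 0.05 the limma fit with the covariate held 1, 1 and 4 members and 5181, 3457 and 2214 genes in total RNA, polyribosomal RNA and efficiency.

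**Figure D4:**
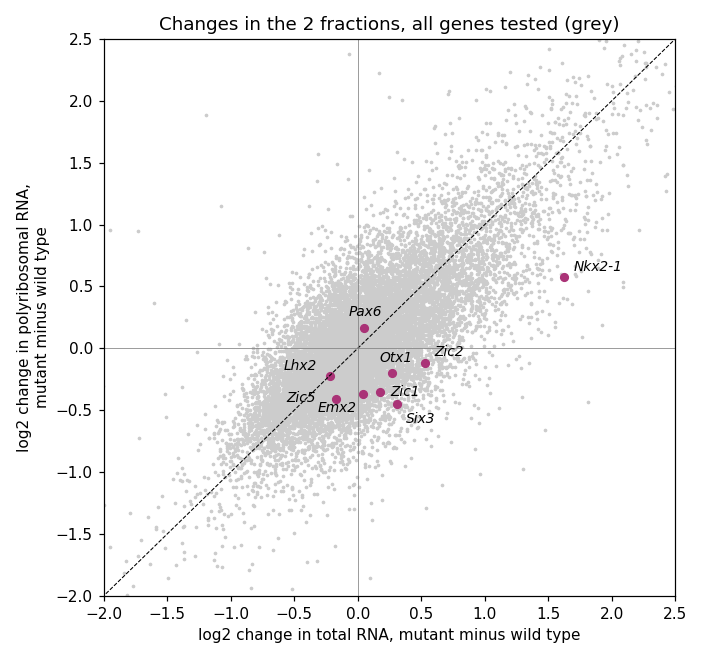
Log2 change in total RNA (x axis) against that in polyribosomal RNA (y axis) for 14333 genes in grey, 109 of which lie outside the axes, and for the 9 members in purple; the dashed line marks equal change. Below the line lie 8 members, among them Nkx2-1, with 1.63 in total against 0.57 in polyribosomal RNA.

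Several members share their locus with another transcript, and the library kit did not mark strand, so reads from overlapping parts cannot be told apart. Six3 (mm10 chr17:85613608-85629302, plus strand) overlaps Six3os1 on the opposite strand, which was abundant, at 6697 ± 993 in wild-type and 5978 ± 1223 in mutant total RNA. The overlap is with the GENCODE span of the Six3 gene. Six3os1 ends at 85618398, before the RefSeq start of Six3 at 85620834, so an mRNA from that start does not overlap it. In polyribosomal RNA Six3os1 was at 7420.5 ± 1255 and 4473 ± 1422 and fell (-0.76 ± 0.20, adjusted p = 0.0195), and its ratio fell as that of Six3 did (-0.59 ± 0.12, adjusted p = 0.00841). Emx2 (chr19:59458372-59465357, plus strand) overlaps Emx2os, which was at 292 ± 8.69 and 357 ± 37.4 in total RNA and did not pass in efficiency (0.21 ± 0.19, adjusted p = 0.497). Emx2os likewise ends at 59458635, before the RefSeq start of Emx2 at 59458690. Zic1 (chr9:91358058-91365810, minus strand) overlaps the coding gene Zic4, at 171 ± 9.12 and 189 ± 37.7 in total RNA, with an efficiency change of -0.07 ± 0.21 (adjusted p = 0.840). Pax6 (chr2:105668900-105697364, plus strand) overlaps Pax6os1, which was near 0 in every library (at most 10.7). Nkx2-1 (chr12:56531958-56536908, minus strand) lies 2531 bases from Sfta3-ps, at 4.11 ± 2.73 and 12.8 ± 10.8 in total RNA and highest in mutant culture 3. Antisense genes without values here also overlap members on the opposite strand. These were Gm26973 for Nkx2-1, Gm27197 and Gm13584 for Lhx2 and Gm28528 for Six3.

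The annotated mRNAs of the members have a range of lengths. Their leaders were all above the median of the genes matched, though Zic2 and Otx1 were only at percentiles 59.9 and 60.6. The longest annotated coding transcript (GENCODE M21) was 2809 bases for Nkx2-1, 2916 for Emx2, 3680.0 for Six3, 2440.0 for Zic2 and 5606 for Zic1, between percentiles 33.3 and 83.0 of the 13569 tested genes matched to a coding transcript. Its 5' untranslated region was 613 bases in Nkx2-1, 844 in Emx2, 406 in Six3, 751 in Zic1 and 241 in Zic2, against a median of 193 over those genes. Pax6 and Lhx2, which did not pass in efficiency, had the longest at 2935 and 1015 bases. For Pax6 this was 1 of 11 annotated coding transcripts, chosen by length, with a coding part of only 762 bases. Its leader need not be that of the other Pax6 transcripts. GC content of the 5 that fell ran from 45.7% in Zic1 to 59.9% in Zic2. Over the matched genes the efficiency change had a Spearman correlation of -0.44 with transcript length and -0.42 with coding length. It was -0.26 with GC content and -0.16 with leader length, a description across genes that are not independent replicates. The coding length of the 5 that fell lay between percentiles 21.0 (Emx2) and 58.3 (Zic2). The part of these features in the values of the members was not tested.

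Other patterning genes were counted in lists around the members. Of all genes tested in total RNA, 19.7% rose and 20.7% fell. In total RNA 5 of 8 tested septal and midline factors and signals rose and none fell, with a median log2 change of 0.81, and among them was Msx1, a roof plate homeobox factor (mean 210 against 454, 1.10 ± 0.20, adjusted p = 0.00423). Of 16 ventral subpallial factors tested 3 rose and 4 fell (median 0.07). Dlx2, which drives interneuron fate, fell from a mean of 221 to 116 (-0.93 ± 0.19, adjusted p = 0.00545), while Nr2f2, a factor of the caudal ganglionic eminence, rose from 159 to 431 (1.36 ± 0.37, adjusted p = 0.0159). None of 7 dorsal pallial factors tested passed in total RNA (median 0.36). Of the posterior neural factors, which mark hindbrain, midbrain and spinal cord, 11 of 33 were tested and 9 rose (median 1.38), as Irx5 did from a mean of 99.3 to 399 (1.95 ± 0.23, adjusted p = 0.00214) and the low gene Hoxa5 from 5.36 to 54.6 (3.10 ± 0.34, adjusted p = 0.00168). Of 10 tested close paralogues of the members 5 rose (median 0.44), and of 19 partner proteins 3 rose and 3 fell (median 0.11). These counts of rises include genes with a wild-type mean under 10, which passed the filter on low values only through the mutant cultures. Such genes could only be called higher. Among them were the septal and midline genes Wnt8b and Rspo2, the posterior factor Hoxa5 and the paralogues Nkx2-4 and Six6.

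In polyribosomal RNA 2 of 6 septal and midline genes rose and 1 fell (median 0.42), 2 of 16 ventral factors rose and 5 fell (-0.25), 1 of 8 dorsal factors fell (-0.11), 6 of 10 posterior factors rose (1.29), 2 of 11 paralogues rose and 2 fell (0.17) and 3 of 19 partners rose and 3 fell (-0.05). Of all genes tested in polyribosomal RNA, 11.7% rose and 11.9% fell. Hoxa5 and Six6, among others, again passed the filter only through their mutant values. The dorsal factor that fell was Emx1, the relative of Emx2, at 19.9 ± 9.79 in wild-type and 6.56 ± 1.20 in mutant polyribosomal RNA (-1.38 ± 0.37, adjusted p = 0.0220). Emx1 passed the filter there through its wild-type values, of which culture 1 was the highest at 34.2. In total RNA, where it was too low to be tested, Emx1 was at 10.2 ± 1.90 in wild-type and 4.50 ± 3.94 in mutant cultures.

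The difference between these lists and the members was not tested. Of all genes tested in efficiency, 5.07% rose and 7.89% fell. Lower efficiency was called for 1 of 7 dorsal factors (Nr2f1, -0.43 ± 0.11, adjusted p = 0.0216) and 1 of 16 ventral factors (Nr2f2, -0.99 ± 0.22, adjusted p = 0.0113). It was also called for 1 of 10 posterior factors (Pax2, -1.16 ± 0.33, adjusted p = 0.0288) and for none of 6 septal and midline genes or 10 paralogues. Of 19 partners 2 rose, the LIM-domain cofactor Lmo1 (0.65 ± 0.13, adjusted p = 0.00770) among them, and 2 fell, among them the corepressor Tle3 (-0.59 ± 0.15, adjusted p = 0.0175). The list medians were -0.17 for dorsal, -0.16 for ventral, -0.05 for septal, -0.17 for posterior genes, -0.30 for paralogues and -0.08 for partners. Among cell type markers, 4 of 11 microglial, 2 of 12 NSC, 2 of 10 oligodendrocyte and 1 of 8 meningeal markers fell in efficiency.

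Nkx2-4 and Six6 are close paralogues of 2 members. Nkx2-4, a relative of Nkx2-1 found in the hypothalamus, was at 0.973, 0, 12.9 and 5.51 in wild-type and at 77.3, 135, 374 and 5.21 in mutant total RNA, and Six6, the eye field relative of Six3, at 0, 0, 0.835 and 0 and at 33.6, 31.2, 105 and 0. Both rose by the test (adjusted p = 0.0185 and 0.0237). Both passed the filter on low values only through their mutant values (mean 4.85 against 148 and 0.209 against 42.3). A call could therefore only be a rise, and it adds no support. Mutant cultures 1 to 3 were above every wild-type culture for both, and mutant culture 3 was the highest, as for Nkx2-1, whereas mutant culture 4, with Nkx2-4 at wild-type levels and Six6 listed at 0, still held 118 normalized reads of Nkx2-1.

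Over the 16 libraries, with each gene centred on its mean within each table, the genes most like each member were named by Pearson correlation, as a description of libraries that share cultures and genotype. Six3 was most like Tns3 (0.95), Jade2 (0.94) and Nav2 (0.89), and Nkx2-1 most like Sgk1 (0.96), Npas2 (0.95) and Otud1 (0.95). Lhx2 was most like Mlkl, Sh3bgrl2 and Sp8 (0.94 each), and Otx1 most like Mtmr3 (0.95), Dgkd (0.89) and Smtnl2 (0.88). Pax6 was most like Zadh2 (0.88), Nim1k (0.88) and Celf4 (0.86), Emx2 most like Fubp3 (0.87), Asb7 (0.86) and Arhgef10 (0.84), and Zic5 most like Slc25a36 (0.90), Yod1 (0.89) and Fem1c (0.85). Zic1 was most like Sall2 (0.85), Mmp15 (0.84) and E130317F20Rik (0.84), and Zic2 most like Tnrc18 (0.84), Rin3 (0.84) and Itpripl2 (0.83). Among the members themselves the closest pair was Zic1 and Zic2 (0.76), followed by Lhx2 and Zic5 (0.74) and Six3 and Zic1 (0.70), and the most opposed were Nkx2-1 and Lhx2 (-0.70). Zic2 and Zic5, the neighbours on chromosome 14, had a correlation of 0.26.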

How the data were processed

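Total and polyribosomal RNA of 4 wild-type and 4 Tsc2 mutant V-SVZ NSC cultures (16 libraries in 4 groups) was polyadenylation-selected and sequenced without strand marking. Cells had been treated with cycloheximide, and the heaviest part of a sucrose gradient was taken as polyribosomal RNA. The authors trimmed reads (FastQ Toolkit 2.2.5), aligned them with STAR 2.6.1A to mm10 and deposited a signal, counts of reads for each gene over normalization factors (DESeq2 in BaseSpace RNA-Seq Differential Expression 1.0.1, per the methods and the submitters' processing notes), in 2 separately normalized tables. For the counter and its annotation: not given in the sources used here. Of 24972 rows, 26 named as dates were left out.

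Within 0.1 of a whole multiple of the step for 1 read were 91.7% to 93.6% of a library's low values for total RNA and 73.4% to 94.0% for polyribosomal RNA, so whole reads were not recovered and no count model was used. Read depth was estimated as the column total over that step, and it limits the precision of low genes such as Nkx2-1. Values were tested as log2(value + 1) with limma 3.58.1 in R 4.3.3 (variance trend, robust moderation, Benjamini-Hochberg over all genes with a mean of at least 10, 14967 for total and 14412 for polyribosomal RNA, threshold 0.05). Changes of low genes are understated on this scale. Log2 changes are given ± standard error. Translational efficiency was the interaction of genotype and fraction over 16 libraries with culture as a fixed block (14333 genes), where table constants cancel. Polyribosomal and total RNA of 1 genotype were not tested against each other. The fit was tested on simulated data, with the 2 libraries of a culture simulated independently. It recovered 92.4%, 86.4% and 81.8% of 4-fold changes in total RNA, polyribosomal RNA and efficiency. For 2-fold changes the shares were 73.1%, 59.7% and 43.3%, and for 1.5-fold changes 38.8%, 19.4% and 10.4%. A member that did not pass may therefore still have changed by such amounts. Both libraries made from 1 culture share its number in the labels, and they correlated in their deviations from the group means (0.23 to 0.73), whereas same-numbered wild-type and mutant cultures did not (-0.13 to 0.13) and are not paired. Members and lists were chosen with earlier results of these data known. Named beyond the members were at most 4 genes of a list by smallest p in a comparison, the 3 genes most alike to each member and Tsc2. Neighbouring genes were named after their values were seen. A few list members, with 1 list, are not reported here. Positions are from GENCODE M21 and starts from RefSeq, both GRCm38. Alternatives were other pseudocounts, no filter, column totals alone, leaving out cultures, the Y-linked level, and replicate blocks.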

Additional observations from a re-analysis of the deposited data

Results flagged for a closer look

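Of 54 groups of 4 values (9 members in 2 fractions and as ratios, in 2 genotypes) 4 held a culture far from the other 3 by Dixon's criterion (the gap to the nearest value over the whole range), which chance gives in about 1 in 20 groups. Nkx2-1 in mutant culture 3 was at 375 normalized reads in total RNA and at 398 in polyribosomal RNA. Zic1 in mutant culture 2 was at 4478 in total RNA, against 3066 to 3265 in the other 3 mutant cultures. Zic2 in wild-type culture 2 was at 2987 in polyribosomal RNA, against 2393 to 2480 in the other 3 wild-type cultures. None of the ratios was so distant.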

How the results depend on the processing

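Of 414 values of single members under alternatives, 363 kept their direction and side of the threshold, 27 lost and 10 gained a call and 14 changed sign. The efficiency calls of Six3, Nkx2-1 and Zic2 held in 14 of 16 alternatives each, all but the Y-linked covariate and the fit without the culture block, that of Zic1 in 9 and that of Emx2 in 4. Members called in efficiency numbered 5 in the fit as reported, 3 to 6 with 1 culture left out (3 without wild-type culture 2, mutant culture 1 or mutant culture 4), 3 without mutant cultures 2 and 4 and 0 with the Y-linked covariate. A replicate block on the replicate number gave 3 members and 619 genes in efficiency, and changed no member's call in total or polyribosomal RNA. Without the culture block (no replicate block) 0 members and 0 genes passed in efficiency. In total RNA 2 to 4 members passed with 1 culture left out (4 without mutant culture 2, Lhx2 and Otx1 added) and 0 with the Y-linked covariate. In polyribosomal RNA it was 0 to 2 (2 without mutant culture 2), 2 without mutant cultures 2 and 4 and 0 with the covariate. Genes called with 1 culture left out ranged from 1884 to 4087 in polyribosomal RNA and from 649 (without mutant culture 1) to 3282 (without wild-type culture 1) in efficiency (3403 and 1858 as reported), 5402 passed in polyribosomal RNA without mutant cultures 2 and 4, and with the covariate 1063, 43 and 0 passed in total RNA, polyribosomal RNA and efficiency. The cause was not tested.

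Changes of sign occurred among values that had no call. Without mutant cultures 2 and 4 Pax6 turned to -0.0208 in total and -0.0169 in polyribosomal RNA, Otx1 to 0.0618 in polyribosomal RNA and Lhx2 to 0.0369 in efficiency. With the covariate Pax6 turned to -0.0779 in total RNA, -0.0924 in polyribosomal RNA and -0.0145 in efficiency, and Emx2 to -0.0117 in total RNA. With column totals alone Zic2 turned to 0.0098 in polyribosomal RNA and Lhx2 to 0.0247 in efficiency. With 1 culture left out Zic2 in polyribosomal RNA ran from -0.252 to 0.0573, and Lhx2 in efficiency from -0.0314 to 0.0252.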
